A study of Arabidopsis thaliana with 9 samples.

Results

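Inflorescences and roots of Arabidopsis thaliana were compared on 1-colour Agilent arrays whose probes were mostly chosen for lincRNAs (long non-coding RNAs from between genes), with 3 arrays per organ, 6 of the 9 arrays in the study. All plants were wild type and named Col-0 in the growth protocol, and they grew at 22 °C in cycles of 16 h light and 8 h dark; ecotype labels carry a running number that differs between samples and was not used. Inflorescences with flower buds, open flowers and some very young siliques came from plants of 4 weeks, grown on solid half-strength Murashige-Skoog medium or in a greenhouse. Roots came from plants of 30 days in hydroponic culture with full-strength MGRL medium. Organ, age and growth condition therefore cannot be told apart in any difference given here, and the hour of harvest is not stated. Titles number the replicates 1 to 3 in each organ, but nothing says which came from separate plants or pools, so the p-values measure the spread between these arrays.

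A gene entered the comparison when the scanner software flagged a probe of it as well above background on all 3 inflorescence arrays, on all 3 root arrays, or on both sets. This left 2162 of the 5077 genes on the array: 1658 of 4499 lincRNAs, 289 of 302 annotated non-coding loci, 118 of 177 microRNA precursors, 92 of 94 protein-coding genes and all 5 loci without a match in the gene table. Because the filter is passed through the brighter organ alone, the share of genes that differ is partly set by it. None of the 30 genes chosen as markers of inflorescence, green tissue or root is on the array, so the organ labels could not be checked against markers. A lower level in an organ can come from fewer cells that make an RNA or from less of it per cell, which cannot be told apart in whole-organ RNA.

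LincRNAs are transcribed from the stretches between annotated genes and, by definition, encode no recognised protein. Most plant microRNA precursors are made by RNA polymerase II as capped transcripts, folded into hairpins and cut by DICER-LIKE1 into a mature microRNA that guides the cleavage of target messenger RNAs. A precursor signal on an array is therefore a level of the unprocessed transcript, not of the mature microRNA. The protein-coding genes on this array are a small chosen set, rich in transcription factors and regulators of light, clock, abscisic acid and jasmonate responses.

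Levels are given as log2 processed signal on a scale where 0 is the 75th percentile, on each array, of the 2679 probes well above background on all 6 arrays. Differences are log2 inflorescence minus root with the standard error (SE) of the limma fit, n = 3 arrays per organ, so positive values are higher in inflorescence. A gene was called when the Benjamini-Hochberg adjusted p over all 2162 genes was under 0.05 and the difference at least 2-fold; every adjusted p given is limma's. A gene that was well above background on no array of its dimmer organ has only a bound, written as at least N-fold: the mean of the brighter organ is set against the lowest signal flagged well above background on each dimmer array, or against the gene's own signal where that is higher. Each bound refers to the representing probe.

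Between 24.1% and 39.9% of probes were well above background on the 6 arrays, with the lowest shares on replicate 3 of both organs. Slide 1 held replicates 1 and 2 of each organ, and slide 2 held replicate 3. Across genes, arrays of the same organ correlated at 0.985 and 0.988 within a slide and at 0.934 to 0.939 between slides, and arrays of different organs at 0.662 to 0.716; genes are not independent replicates in these values. The tested genes were lower on slide 2 by a median of 0.48 in inflorescence and 0.45 in root, and their median difference between organs was -0.19 on slide 1 and -0.24 on slide 2.

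Of the 2162 genes, 584 were called (27%), 260 higher in inflorescence (12%) and 324 higher in root (15%). Of the lincRNAs, 379 were called (22.9%), 147 higher in inflorescence and 232 higher in root. Annotated non-coding loci split evenly, 54 and 53 (37.0% called), and microRNA precursors nearly so, 28 and 24 (44.1%). Protein-coding genes gave 30 calls toward inflorescence and 15 toward root (48.9%). The differences between these shares were not tested. The median SE was 0.44 for lincRNAs, 0.30 for precursors and 0.16 for the other 2 classes. The median difference was -0.21 over all tested genes, -0.25 for lincRNAs, -0.24 for precursors, -0.04 for non-coding loci and 0.34 for protein-coding genes. Over the other scalings and background corrections tried, the median over all tested genes lay between -0.37 and 0.18, and the share of calls higher in inflorescence, 44.5% here, between 39.6% and 51.4%. The median also turned with single arrays, from -0.55 without root replicate 3 to 0.13 without inflorescence replicate 3. These fits keep a slide 2 array for a single organ, and tested genes were lower on slide 2. Within a slide the median was -0.19 (slide 1) and -0.24 (slide 2).

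**Figure D1:**
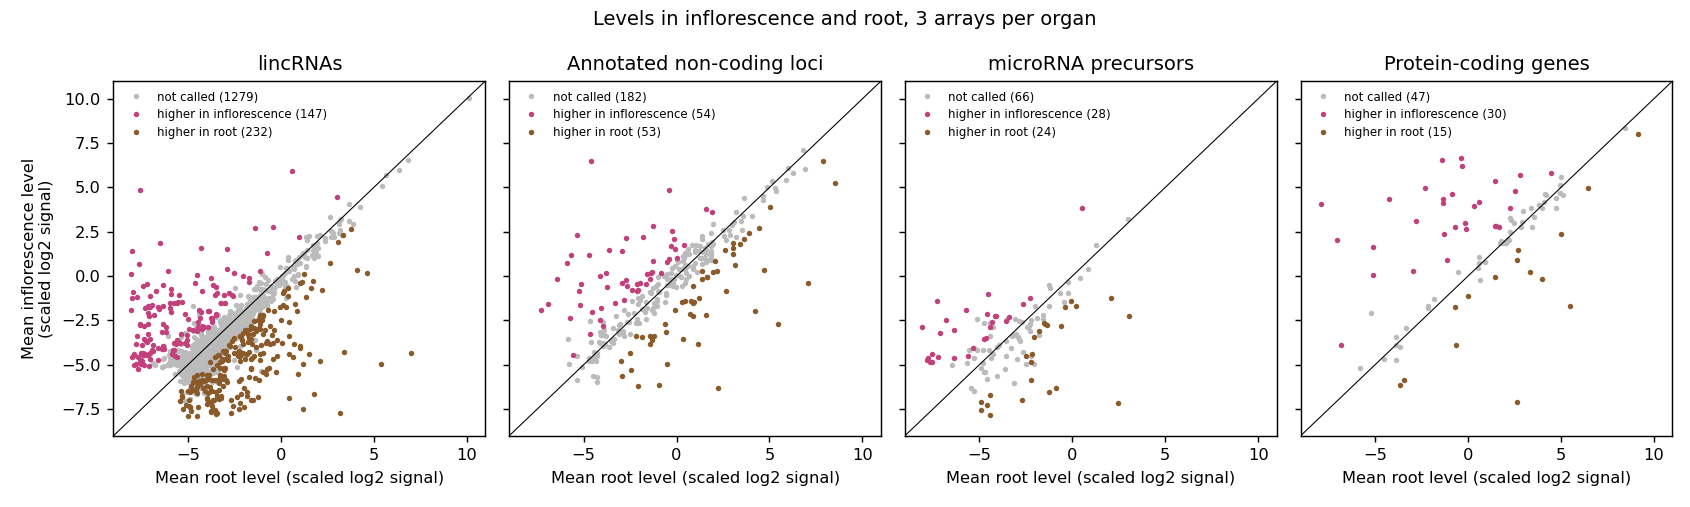
Mean scaled log2 signal in root (x axis) and inflorescence (y axis) of each tested gene, 3 arrays per organ, by class of RNA, with the line of equal levels. Called genes are coloured by the organ in which they were higher and their numbers stand in each panel, from 147 and 232 lincRNAs to 30 and 15 protein-coding genes.

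Fitted differences of at least 8-fold, those of genes with only a bound included, were found for 228 called genes, 123 of them toward inflorescence. Among these were 70 lincRNAs and 20 protein-coding genes toward inflorescence and 78 and 5 toward root. Detected on all 3 inflorescence arrays and on no root array were 99 genes, 78 of them lincRNAs, and for the opposite pattern the numbers were 101 and 86. The 3 values of each organ did not overlap for 1004 genes (46.4% of those tested). With slide as a block in the fit, 690 genes were called (31.9%), including all 584. Within slide 1 alone, with 2 arrays per organ, 645 were called (29.8%), 554 of the 584 among them. Slide 2 has a single array per organ and so no test; there 583 of the 584 had the same sign, which the choice of these genes on the same arrays largely fixes.

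Many of the called genes were also seen in leaf, the third organ of the study. Of the genes higher in inflorescence, 63.1% were well above background on at least 2 of the 3 leaf arrays and 28.1% on none, against 76.2% and 10.04% of all tested genes. For lincRNAs higher in inflorescence the share seen on no leaf array was 38.1%, and for protein-coding genes it was 3.33%. Among genes higher in root it was 25% for all classes and 31.5% for lincRNAs. Leaf replicate 2 had few probes well above background (10.7%), so a miss on a single leaf array says little.

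Among lincRNAs measured on all 6 arrays, the 5 with the largest differences were higher in root. AT4TU029580, on chromosome 4, had levels of -4.33, -4.39 and -4.22 in inflorescence and 6.98, 6.93 and 7.15 in root, a 2576-fold difference (-11.33 ± 0.14, adjusted p = 4.49e-06). The groups lay far apart, but 1 of the 3 probes of this lincRNA differed by 0.33. AT1TU066270, on chromosome 1, read -5.07, -4.67 and -5.10 against 5.37, 5.40 and 5.35 (-10.32 ± 0.17, adjusted p = 5.98e-06), and its probes spanned -12.48 to -5.60. The levels of AT1TU048160 were -3.66, -3.91 and -5.22 and 3.45, 3.42 and 3.28 (-7.65 ± 0.44), and those of AT1TU070790 were -4.64, -4.92 and -4.85 and 2.09, 2.11 and 2.06 (-6.89 ± 0.14). In both the root arrays lay close together, and inflorescence replicate 3 of AT1TU048160 was below its other arrays. AT1TU072870 (-6.17 ± 0.32), AT1TU091960 (-5.18 ± 0.77), AT5TU087180 (-5.06 ± 0.48) and AT5TU092090 (-4.94 ± 0.42) completed the 8 largest toward root among lincRNAs measured on all 6 arrays. Root replicate 3 of AT1TU091960 was at -1.10, below its other root arrays at 1.33 and 1.70, and 1 probe of this lincRNA differed by 1.03 the other way.

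A second set was well above background in root and on no inflorescence array with any probe. AT1TU043160 was at 3.20, 3.24 and 3.13 in root, at least 459-fold higher than in inflorescence (adjusted p = 5.98e-06). For AT5TU070210, at 1.19, 1.22 and 1.20 in root, the bound was 116-fold, and for AT2TU035760, at 0.41, 0.38 and 0.53, it was 68.2-fold. AT1TU067990, AT1TU027380 and AT2TU002680 followed with bounds of 22.4, 16.5 and 14.5-fold. Of these 6, 4 were well above background on no leaf array and the other two on 1. A single probe was nearly level for AT1TU027380 (0.03) and for AT2TU002680 (0.48).

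Toward inflorescence, the lincRNA with the largest bound was AT2TU004830 on chromosome 2. It read 4.74, 4.89 and 4.86 in inflorescence and was flagged well above background on no root array, so it was at least 1554-fold higher in inflorescence (adjusted p = 5.98e-06). Its probes spanned 10.65 to 12.40, and it was seen on no leaf array. AT5TU080700, at 1.98, 1.98 and 1.73, was at least 203-fold higher, and AT5TU018610, at 1.35, 1.56 and 1.43, at least 148-fold, although 1 probe of the latter differed by -0.13. Bounds were 87.1-fold for AT1TU057020, 66.3-fold for AT4TU019060 and 58.5-fold for AT3TU068440. None of these 6 lincRNAs was well above background on any leaf array. Of all called lincRNAs higher in inflorescence, 38.1% were seen on no leaf array. The rule that chose the 6 used absence from root but not the leaf arrays.

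Other lincRNAs higher in inflorescence were measured on all 6 arrays. AT3TU041570, on chromosome 3, read 5.88, 6.11 and 5.80 against 0.70, 0.62 and 0.50 in root (5.32 ± 0.15, adjusted p = 1.37e-05), but 1 of its probes differed by -0.92 and the call was lost when the probes were averaged. AT2TU000580 read 1.45, 1.61 and 1.61 against -2.78, -2.65 and -3.30 (4.47 ± 0.22). AT4TU057340 read -0.33, -0.41 and -0.49 against -4.72, -4.79 and -4.41 (4.23 ± 0.16). AT1TU028770 had the tightest values of the set, 2.69, 2.67 and 2.74 in inflorescence and -1.41, -1.36 and -1.40 in root (4.09 ± 0.12). The next were AT1TU015150 (3.87 ± 0.31), AT4TU024160 (3.70 ± 0.54), AT1TU102500 (3.38 ± 0.27) and AT2TU032020 (3.29 ± 0.25). In each the lowest inflorescence array was above the highest root array, which the choice by difference on these arrays largely fixes. The groups did not overlap in 37.8% of the tested lincRNAs. Single probes of AT1TU015150 (0.13) and AT2TU000580 (0.07) were nearly level. Unlike the previous 6, 6 of these 8 were well above background on all 3 leaf arrays.

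**Figure D2:**
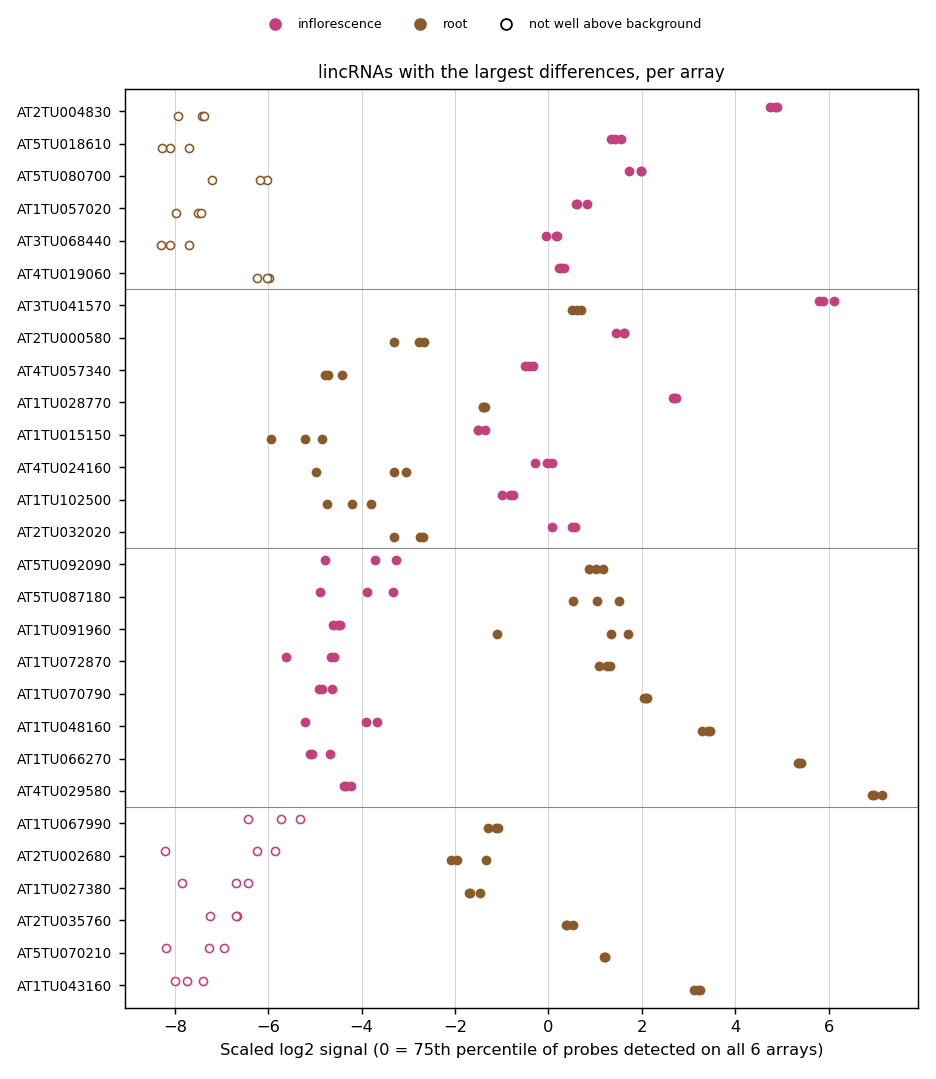
Scaled log2 signal (x axis) on each of the 6 arrays for 28 lincRNAs, inflorescence in pink and root in brown, with open points where the probe was not well above background. Sections from the top show lincRNAs above background in inflorescence only, then those measured on all 6 arrays and higher in inflorescence, then those higher in root, then those above background in root only.

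The lincRNA calls were spread over all 5 chromosomes, from 21.0% of those tested on chromosome 2 to 26.4% on chromosome 4. On chromosome 1, 30 were higher in inflorescence and 69 higher in root. On chromosome 3 the numbers were 32 and 35. Names follow position: for the 930 lincRNAs whose probe names carry a start, the order of names and of starts was the same on every chromosome. Among tested lincRNAs next to each other in this order, 38 pairs had both members called, and 27 of them went the same way. The numbers in their names were 10 to 880 apart, and of 19 pairs at most 20 apart 15 went the same way. As 232 of the 379 called lincRNAs were higher in root, many pairs would share a sign without any link, and an excess was not tested. AT5TU092090 and its neighbour AT5TU092100 were both higher in root (-4.94 and -6.43), as were AT1TU043130 (-5.12) and AT1TU043160 (at least 459-fold). AT5TU052750 (at least 33.3-fold) and AT5TU052760 (5.83) were both higher in inflorescence. Other neighbours were opposed: AT2TU004780 was higher in root (-4.25) beside AT2TU004830, at least 1554-fold higher in inflorescence, and AT1TU029460 (-2.60) lay beside AT1TU029470 (3.01). Whether neighbours of the same sign belong to a single transcript was not tested.

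For the called lincRNAs as a group, the other probes of a gene agreed in sign with the one that stands for it in 71.7% of cases. The share was 95.5% among other probes that themselves passed the filter, through either organ. For protein-coding genes the values were 98.9% and 100%. Every other probe had the same sign for 101 of the 147 lincRNAs higher in inflorescence (68.7%) and 115 of the 232 higher in root (49.6%). The direction of a single lincRNA thus often rests on 1 probe.

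Annotated non-coding loci, which carry locus codes but no protein, included single loci with large differences. AT4G04077, on chromosome 4, read 6.49, 6.55 and 6.39 in inflorescence and -4.11, -4.79 and -4.96 in root, a 2189-fold difference (11.10 ± 0.26, adjusted p = 8.26e-06), and was seen on no leaf array. It overlaps the protein-coding AT4G04078 in the gene table, and without strand the RNAs of overlapping genes may not be told apart. AT5G40348, which overlaps MYB24, a gene for a MYB factor of stamen development, read 2.31, 2.40 and 2.24 against -6.02, -4.92 and -5.20 (7.70 ± 0.31). AT5G49138 (6.84 ± 0.94), overlapping the protein-coding AT5G49130, and AT3G21755 (6.67 ± 1.01), the latter overlapping the glycosyltransferase genes UGT71B1 and HYR1, were each well above background on only 1 or 2 root arrays. AT2G42835, which overlaps SHP2, a MADS-box gene of carpel and fruit margins, read -0.18, -0.23 and -0.13 and was at least 46.1-fold higher in inflorescence.

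Toward root, AT3G52748 on chromosome 3 read -2.58, -2.45 and -3.14 in inflorescence and 5.40, 5.47 and 5.46 in root (-8.16 ± 0.22, adjusted p = 1.25e-05). AT5G07322 read -0.42, -0.39 and -0.29 against 7.19, 6.94 and 7.07 (-7.43 ± 0.14), and AT3G27884 was at 2.18, 2.20 and 2.32 in root with 1 of 3 inflorescence arrays above background (-8.52 ± 0.38). AT4G20362, which overlaps RABE1b and AT4G20350, differed by -6.21 ± 0.22, and AT1G19968 was at least 26.3-fold higher in root. In these 5 loci no inflorescence array reached any root array, which their choice by difference on the same arrays largely fixes. The groups did not overlap in 76.5% of the tested non-coding loci. Of the 178 loci that overlap a protein-coding gene in the gene table, 38 were higher in inflorescence and 22 higher in root. Among the 111 with no such overlap the numbers were 16 and 31. The difference between these 2 splits was not tested.

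Among microRNA precursors, those of the copper-responsive microRNAs were higher in root. These microRNAs, which include miR398 and miR408, accumulate when copper is scarce and target messages of copper proteins such as superoxide dismutases, laccases and plantacyanin. All 4 tested of the 7 on the array were called higher in root, and MIR397a, MIR397b and MIR857 did not pass the filter. Only MIR408 was well above background on all 6 arrays. The 3 MIR398 precursors passed the filter through root alone, which largely sets their direction. The median of the fitted differences was -5.38, but 2 of the 4 have only a bound, and it was -3.998 with a common floor under dim signals and -1.23 with normexp background correction, where 3 were called. MIR398a read 2.55, 2.53 and 2.27 in root and was above background on no inflorescence array, at least 274-fold lower there (adjusted p = 5.92e-05). MIR398b read -4.39, -6.48 and -8.03 in inflorescence, of which only the first was above background, and -0.89, -0.74 and -0.94 in root (-5.44 ± 0.92). MIR398c, at -1.14, -1.09 and -1.46 in root, was at least 21.4-fold higher there. MIR398b and MIR398c have similar precursors and 1 probe each, so their signals may be shared. MIR408 read -2.11, -2.14 and -4.20 against -0.41, -0.41 and -0.92 (-2.24 ± 0.63, adjusted p = 0.045), with inflorescence replicate 3 on slide 2 well below the others, and its call was lost in 5 of the 6 fits that left out an array. All 3 MIR398 precursors were well above background on all 3 leaf arrays. The root and inflorescence plants grew on different media, so organ and medium cannot be told apart here.

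Precursors of microRNAs that respond to sulfate, phosphate or nitrogen supply gave 6 calls toward root and 2 toward inflorescence among 18 tested. Their median was -1.96 (-1.504 with a common floor), and over all tested precursors 44.1% were called, with a median of -0.24. Of the 29 of this list on the array, the 6 MIR399 precursors and MIR827, which act in phosphate supply, were among the 11 below the filter. The MIR169 family, whose microRNAs target messages of NF-YA transcription factors, made up 14 of the 18, and all 14 differences lay below 0; leaving aside MIR169c, which has only a bound, they ran from -3.67 to -0.53. Of these, 4 were called: MIR169c was at -2.83, -2.47 and -2.72 in root and above background on no inflorescence array (at least 7.87-fold), MIR169a read -6.13, -6.01 and -5.49 against -2.16, -2.29 and -2.17 (-3.67 ± 0.21, adjusted p = 1.36e-04), and MIR169k (-2.63 ± 0.69) and MIR169j (-2.21 ± 0.63) lost their calls in 6 and 7 of the alternatives. Without any 1 root array 2 of the family were called, and without inflorescence replicate 3 there were 7 calls and the family's median was -1.12 in place of -1.96. Several MIR169 precursors are near-identical tandem copies, so their signals are not independent. The family's median was -1.35 on slide 1 and -3.31 on slide 2, where 9 of the 14 were not well above background on the inflorescence array. With slide as a block 10 of the 14 were called, and with the replicate number as a block 8, which took the calls of the whole list toward root to 12 and 10. NF-YA5, a gene for an NF-YA factor and a known target of miR169, was higher in inflorescence, at 2.75, 2.65 and 2.93 against -0.65, -0.73 and -0.71 (3.47 ± 0.14, adjusted p = 4.19e-05); it was named after its values were seen. With normexp background correction no member of the list was called and the MIR169 median was -0.19, and with 2 other scalings 11 of the 14 were called. Among probes well above background on all 6 arrays only 4 of the family were tested, 1 was called and the median was -1.63. The others passed the filter through 1 organ alone, which largely sets the sign of their differences.

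The other 4 of this list were called. MIR395b and MIR395c, of a family that responds to sulfate supply, were higher in root by at least 2.07-fold and 2.38-fold. MIR395e was higher in inflorescence by at least 2.09-fold, so the 3 tested members of the family did not go the same way. The signals of all 3 were low, and their calls ended under a common floor, where the family's median was -0.57. These bounds therefore depend on where the floor is set. With normexp none of the 3 was called, and the differences of MIR395b and MIR395c changed sign. MIR393b, which targets messages of TIR1 and related auxin receptors, read -3.40, -3.34 and -3.67 against -4.34, -4.39 and -5.15 (1.16 ± 0.27, adjusted p = 0.0244), a call lost in 9 of the alternatives.

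For 47 tested precursors of microRNAs with roles in development (55 on the array), the median was 0.34. Over all tested precursors it was -0.24, with 44.1% called. Some MIR167 precursors are entered among the 47 under both a microRNA name and a locus code. Of the 47 entries, 12 were higher in inflorescence, 4 higher in root and 31 were not called. These counts depend on the scale: they were 8 and 0 with the 75th percentile of all gene probes, 5 and 3 with the median of all gene probes, and 0 and 1 with normexp. They also depend on single arrays and on the probes used: without inflorescence replicate 1 or 2 the calls toward inflorescence were 6 and 8, with no filter on dim probes the split was 5 and 6, and with slide as a block 18 and 5. The median was 0.05 without root replicate 3 and -0.26 among probes well above background on all 6 arrays. The microRNA of the MIR167 precursors targets the auxin response factors ARF6 and ARF8 that act in flower maturation. Of the 7 MIR167 entries 4 were called, all toward inflorescence, and these are MIR167b and MIR167d, each under both names. The calls were 2 and 1 under the first 2 of those scalings and 0 with normexp. They were 1 with no filter on dim probes and 2 without inflorescence replicate 1. The MIR167d locus AT1G31173 read -2.996, -2.86 and -3.24 in inflorescence and was at least 6.46-fold higher than in root, while the probes under the name ath-MIR167d, for the same precursor, gave at least 2.26-fold, a call lost in 12 of the alternatives, the replicate block among them. MIR167b was called under both its microRNA name (1.07 ± 0.16, adjusted p = 0.00421) and its locus AT3G63375 (adjusted p = 0.00542). Of 11 precursors of miR156 and miR157, which repress SPL factors and hold plants in the juvenile phase, 9 were above 0 but only MIR156c (1.69 ± 0.31) and MIR156h (1.02 ± 0.25) were called, calls lost in 3 and 10 of the alternatives. Without inflorescence replicate 1 or 2 or root replicate 1 only 1 was called, and with slide as a block 6 of the 11 were. In 5 of the 11, root replicate 3 was not well above background.

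MIR172 precursors went both ways. MIR172b, a source of the microRNA that represses AP2-type flowering regulators, read -3.24, -3.28 and -3.14 in inflorescence and was at least 5.70-fold higher there (adjusted p = 0.00387), whereas MIR172a was at least 2.37-fold higher in root, at -4.63, -4.32 and -4.27. MIR172d (-1.17 ± 0.54) and MIR172e (-0.08 ± 0.54) were not called, though MIR172d was with slide or replicate number as a block. Within the MIR165 and MIR166 family, which targets class III HD-ZIP factors of organ polarity, MIR166f was at least 13.5-fold higher in inflorescence, with levels of -1.92, -2.07 and -1.76, and MIR166b was higher in root (-1.24 ± 0.15). The other 5 members lay between -0.83 and -0.44. MIR319a (at least 2.31-fold) and MIR319b (1.56 ± 0.18), which target TCP factors of petal and leaf growth, were higher in inflorescence, and MIR319c and the 3 MIR159 precursors were not called. MIR171a (1.20 ± 0.25) and MIR171b (1.104 ± 0.32) were higher in inflorescence and MIR171c (-1.38 ± 0.20) in root, and MIR396a, which targets growth-regulating factors, was higher in root (-1.92 ± 0.14). The calls of MIR171b, MIR319a, MIR171a and MIR172a were lost in 11, 8, 6 and 5 of the alternatives. In addition, MIR172a was not called with normexp, where its difference changed sign. MIR319b, MIR166b and MIR171c each lost theirs in 3: normexp and the scalings by the 75th percentile and by the median of all gene probes. MIR172b and MIR166f were not called with normexp, nor MIR396a with the 75th percentile of all gene probes. Members of MIR160, MIR162, MIR164, MIR168 and MIR390 were not called, except that MIR390a was with slide or replicate number as a block.

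**Figure D3:**
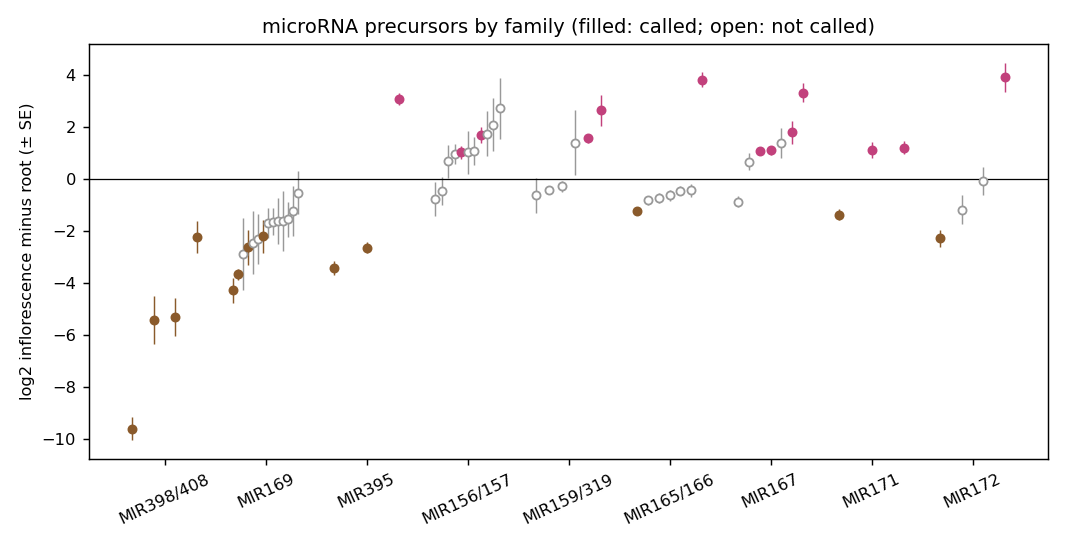
log2 inflorescence minus root (y axis, error bars are SE, n = 3 arrays per organ) of each tested precursor in 9 families or pairs of families, sorted within each. All 14 MIR169 precursors and all 4 of MIR398 and MIR408 lie below 0. Above it lie 6 of 7 MIR167 entries and 9 of 11 MIR156 and MIR157 precursors. Some MIR167 precursors are plotted under both a microRNA name and a locus code. The sign is largely set by the filter for precursors that passed it through 1 organ alone, which most MIR169 and all MIR398 precursors did.

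Outside these lists, the largest calls toward inflorescence were MIR780, at -1.31, -1.22 and -1.62 and at least 21.0-fold higher, MIR776 (at least 7.36-fold), MIR826 (at least 9.86-fold) and MIR839 (3.53 ± 0.25). None of these 4 was well above background on a leaf array. MIR163, whose microRNA targets methyltransferase messages, read 3.93, 3.901 and 3.71 against 0.56, 0.57 and 0.48 (3.31 ± 0.14, adjusted p = 4.48e-05) and was seen on every leaf array. Toward root, MIR415 read -2.03, -2.25 and -2.52 against 3.02, 3.07 and 3.01 (-5.30 ± 0.18) and MIR822 read -1.01, -1.27 and -1.499 against 2.09, 2.15 and 2.08 (-3.36 ± 0.17). The groups were well separated in these 3 precursors, each measured on all 6 arrays. They were chosen for large differences on the same arrays, and the groups did not overlap in 71.2% of the tested precursors.

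Of the protein-coding genes, MEE26, named for arrest of the embryo in mutants, had the largest difference. It read 3.97, 4.11 and 4.19 in inflorescence and was above background on no root or leaf array, at least 928-fold higher in inflorescence (adjusted p = 5.98e-06). Of the 4 tested genes of the embryo and seed list, 3 were called, all toward inflorescence, and of all tested protein-coding genes 48.9% were called. None of the 4 had a probe well above background on all 6 arrays. They passed the filter through inflorescence alone, which largely sets the direction of their differences. FUS3, a B3 transcription factor of seed maturation, read -0.06, 0.17 and 0.07 against -4.70, -4.72 and -5.97 (5.19 ± 0.39), and LEC1, an NF-YB subunit that acts in embryo development, was at least 3.66-fold higher, at -3.91, -3.85 and -3.93. EM1, which encodes a late embryogenesis abundant protein, read -2.01, -2.17 and -2.06 against -3.95, -4.09 and -7.60 and was not called (adjusted p = 0.0759), the root array on slide 2 being far below the others. With slide as a block EM1 was called (adjusted p = 0.0284), as it was without that array, which makes 4 of 4; EM6 did not pass the filter.

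MEE26 lies in a stretch of chromosome 2 of which 8 genes are on the array, and these did not move together. In chromosome order they are MEE22, MEE23, WRKY35, MEE25, EDA3, MEE26, MEE27 and EDA18. EDA3, also named PSA2 and known as a chloroplast protein, is next to MEE26 in the gene table and was higher in inflorescence (3.61 ± 0.13), at 3.88, 4.02 and 3.94 against 0.27, 0.35 and 0.37. WRKY35, a WRKY factor also named MEE24, was higher in root at 3.92, 3.91 and 4.09 against -0.20, -0.12 and -0.19 (-4.15 ± 0.14, adjusted p = 1.94e-05). MEE22 (0.02 ± 0.13), MEE23 (-0.14 ± 0.19), MEE25 (0.74 ± 0.16), MEE27 (0.43 ± 0.89) and EDA18 (0.48 ± 0.14) were not called. The genes around MEE26 were taken up after their values were seen.

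**Figure D4:**
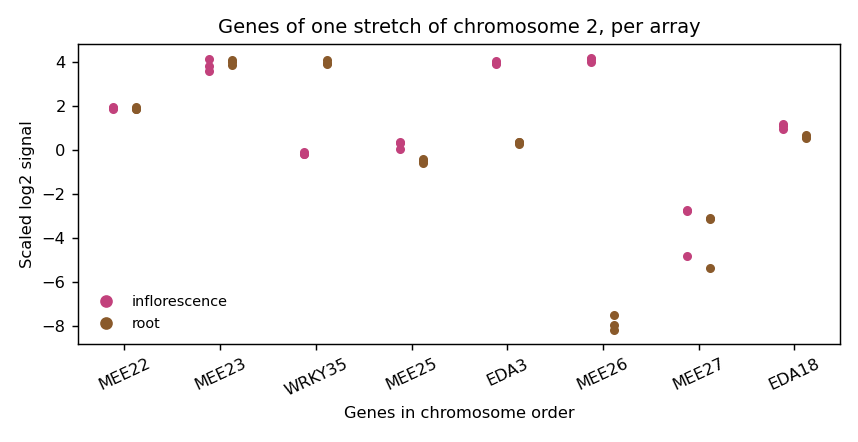
Scaled log2 signal (y axis) on each of the 6 arrays for the 8 array genes of a stretch of chromosome 2, in chromosome order. MEE26 and EDA3 are higher in inflorescence, WRKY35 is higher in root, and the arrays of both organs lie close together or overlap for the other 5.

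The circadian clock of plants joins morning factors, which include the MYB proteins CCA1 and LHY, with the PRR proteins that follow through the day and TOC1 toward evening, each repressing others in turn. Of the 8 tested genes of the clock list, 3 were higher in inflorescence, 1 was higher in root and 4 were not called. Among all tested protein-coding genes 48.9% were called, 30 toward inflorescence and 15 toward root. CCA1 read 4.93, 5.07 and 4.94 in inflorescence and -2.20, -2.15 and -2.63 in root (7.30 ± 0.19, adjusted p = 1.05e-05). LHY read 6.54, 6.71 and 6.66 against -0.35, -0.34 and -0.44, a 129-fold difference (7.01 ± 0.13, adjusted p = 5.98e-06), and all probes of both genes differed by at least 7.01. PRR9, the earliest of the PRR genes, read 2.57, 2.60 and 2.76 against -0.10, -0.22 and -0.01 (2.76 ± 0.14). PRR3 was higher in root, at 1.47, 1.33 and 1.58 against -0.10, -0.21 and 0.11 (-1.53 ± 0.16), though its call was lost under 2 of the scalings tried. TOC1, the evening gene, read 3.896, 3.84 and 3.87 in inflorescence and 4.79, 4.68 and 4.71 in root (-0.86 ± 0.13, adjusted p = 0.00435), short of 2-fold. PRR5 (0.23 ± 0.13), PRR7 (0.18 ± 0.14) and TCP11, listed in the gene table also as CHE (0.42 ± 0.14), were not called.

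Among the 12 light signalling genes, 5 were higher in inflorescence, 2 higher in root and 5 were not called, with a median of 0.64. All tested protein-coding genes had 48.9% called and a median of 0.34. The 4 genes for phytochrome-interacting factors, bHLH proteins that light-activated phytochrome removes, were all higher in inflorescence. PIF4 read 3.23, 3.06 and 3.11 against -2.60, -2.69 and -3.01 (5.90 ± 0.17, adjusted p = 1.36e-05) and PIL6, also called PIF5, read 4.09, 4.23 and 4.03 against -1.29, -1.20 and -1.47 (5.44 ± 0.15). PIF3 (3.66 ± 0.14) and PIL5, also called PIF1 (2.07 ± 0.13), differed by less. HFR1, an atypical bHLH protein that restrains them, read 1.39, 1.64 and 1.82 against -5.30, -5.42 and -4.53 (6.70 ± 0.29), with root replicate 1 not well above background. LAF1, a MYB factor of far-red light signalling, stood at 2.63, 2.69 and 2.57 in root and was above background on no inflorescence or leaf array, at least 311-fold higher in root (adjusted p = 9.98e-05). FHY1, which carries phytochrome A into the nucleus, was higher in root (-1.23 ± 0.16), a call lost under 2 scalings. The photoreceptor genes PHYA (-0.28 ± 0.13) and PHYB (0.55 ± 0.13), the ubiquitin ligase gene COP1 (0.73 ± 0.13), HY5 (0.08 ± 0.13) and FHL (-0.12 ± 0.18) were not called.

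Of the 12 genes that respond to abscisic acid, cold or drought, 6 were higher in inflorescence and none was higher in root, with a median of 1.15. For all tested protein-coding genes 48.9% were called, 30 toward inflorescence and 15 toward root, and the median was 0.34. COR15A and COR15B encode cold-induced proteins of the chloroplast. COR15A read 4.41, 4.29 and 4.35 against -4.45, -4.42 and -3.92 (8.62 ± 0.20, adjusted p = 8.25e-06) and COR15B read 6.46, 6.42 and 6.76 against -1.41, -1.45 and -1.28 (7.92 ± 0.16), but their weakest probes gave 4.22 and 5.04 and the genes are similar in sequence. KIN1, another cold-induced gene, read 1.96, 1.99 and 2.09 and was at least 220.1-fold higher in inflorescence; 1 of its probes was level (0.08), and its near-identical neighbour KIN2 may share signal with it. LTI78, also called RD29A, read 2.79, 2.82 and 3.33 against -0.33, -0.22 and 0.07 (3.14 ± 0.22).

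The regulators in this list differed among themselves. ABI5, a bZIP transcription factor that acts downstream of abscisic acid, read 4.37, 4.36 and 4.37 against -1.16, -1.19 and -1.62 (5.69 ± 0.18, adjusted p = 1.65e-05), and its probes agreed within 5.58 to 5.81. AFP1, whose protein binds ABI5, reached 0.997 ± 0.16, just short of 2-fold. The phosphatase gene ABI2 was called (1.31 ± 0.16), though not under 2 of the scalings, and its relative ABI1 was not (0.59 ± 0.13). ABI3 (-0.02 ± 0.73), ABI4 (-0.12 ± 0.55), LTI65 (0.32 ± 0.39) and COR47 (-0.09 ± 0.20) were not called. COR47, a dehydrin gene, was high in both organs, at 8.25, 8.12 and 8.64 in inflorescence and 8.50, 8.26 and 8.53 in root.

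All 4 jasmonate genes on the array, which encode JAZ repressors of jasmonate-responsive transcription, were higher in inflorescence. The share called was 48.9% over all tested protein-coding genes, with 30 toward inflorescence and 15 toward root. TIFY7, also called JAZ9, read 6.12, 6.13 and 6.39 against -0.26, -0.36 and -0.32 (6.53 ± 0.15, adjusted p = 8.25e-06). JAZ10 read 4.68, 4.59 and 4.56 against -0.84, -0.89 and -0.89 (5.48 ± 0.13), JAZ5 read 5.26, 5.30 and 5.45 against 1.32, 1.44 and 1.53 (3.91 ± 0.14) and JAZ6 read 5.68, 5.60 and 5.74 against 2.71, 2.77 and 2.93 (2.87 ± 0.14). In each the 3 arrays of an organ lay close together and the organs far apart, and the list's median of 4.69 was 4.70 on slide 1 and 4.68 on slide 2. Jasmonate is known to act in stamen maturation, and JAZ genes are themselves induced by it and by wounding.

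**Figure D5:**
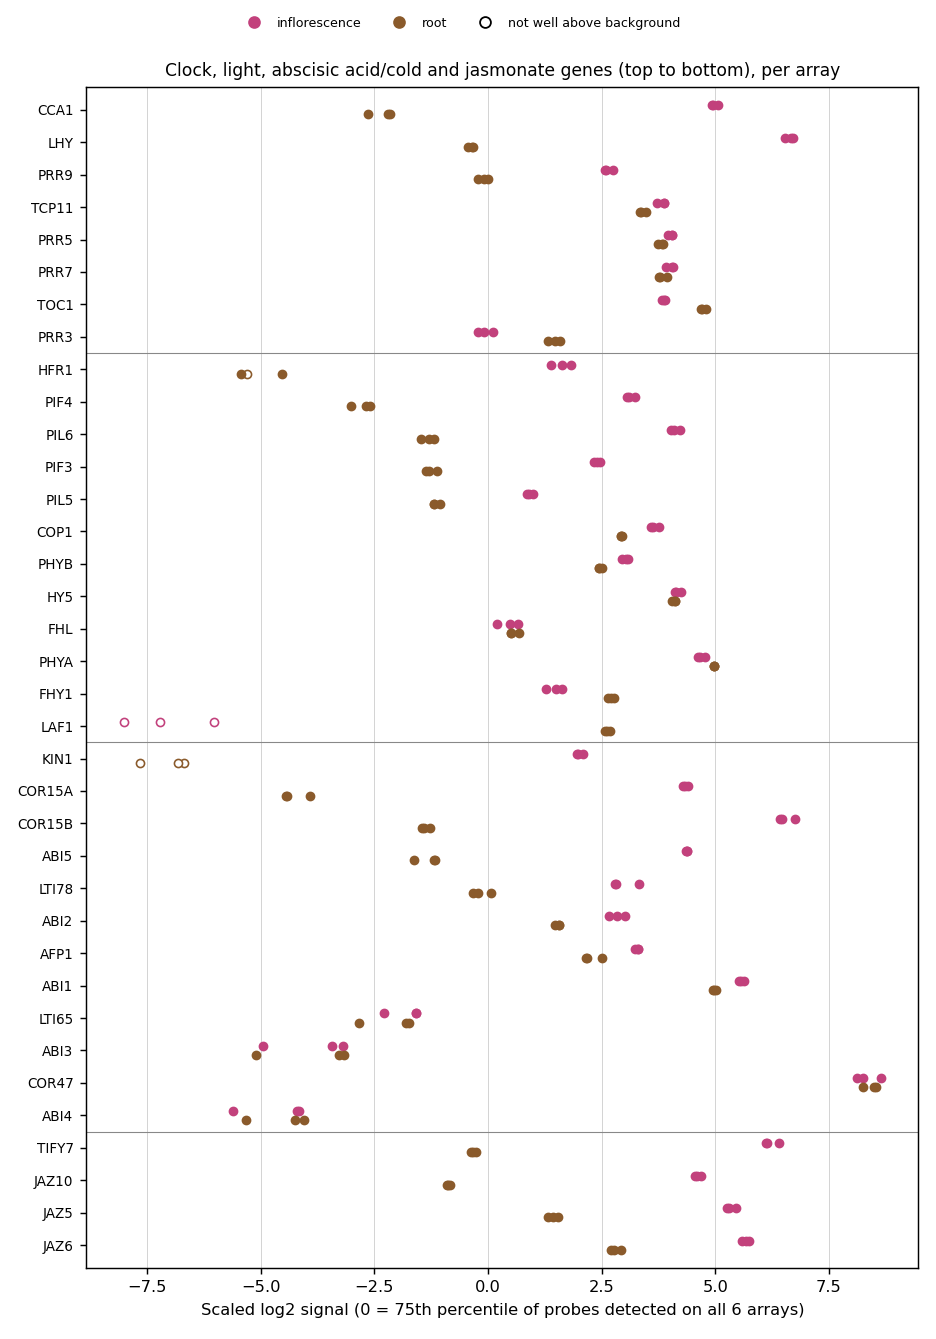
Scaled log2 signal (x axis) on each of the 6 arrays for the clock, light, abscisic acid and cold or drought, and jasmonate genes, in sections from the top, inflorescence in pink and root in brown, with open points where the probe was not well above background. CCA1, LHY, COR15A and TIFY7 lie far apart between organs, while PRR7, HY5 and COR47 have nearly the same level in both.

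Of the 8 genes of the small RNA machinery, 2 were called, both higher in inflorescence: DCL3, which makes small RNAs that guide DNA methylation (1.37 ± 0.16), and NRPE1, the largest subunit of RNA polymerase V (1.07 ± 0.12), whose calls were lost under 2 and 5 of the alternatives. DCL1 (-0.23 ± 0.13), DCL2 (-0.06 ± 0.13), DCL4 (-0.07 ± 0.12), AGO2 (-0.17 ± 0.18), RDR2 (0.21 ± 0.15) and NRPD1 (0.17 ± 0.19) were not called. DCL4 read 2.77, 2.77 and 2.77 in inflorescence and 2.86, 2.84 and 2.80 in root. Of the 2 auxin genes, NAC1, a factor of lateral root formation and a target of miR164, was at least 4.02-fold higher in root, and the receptor gene TIR1 was not called (-0.35 ± 0.17). The 1 source of trans-acting small RNAs on the array, AT3G25795, differed by -0.75 ± 0.19 and was not called.

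Protein-coding genes in none of these lists gave 7 calls toward inflorescence and 11 toward root of 42, with a median of 0.07. The largest toward root was AT1G65481, at -1.45, -1.76 and -1.79 in inflorescence and 5.58, 5.53 and 5.28 in root (-7.13 ± 0.17, adjusted p = 8.82e-06). PAD3, which encodes a cytochrome P450 of camalexin synthesis, read 0.21, 0.29 and 0.13 against 3.41, 3.44 and 3.25 (-3.16 ± 0.14), and NLA, a ubiquitin ligase gene of nitrogen and phosphate response, read 2.38, 2.21 and 2.57 against 5.17, 4.72 and 5.13 (-2.62 ± 0.20). MYB14 (-3.23 ± 0.17), MYB121 (-2.39 ± 0.66) and AT2G01008 (-1.73 ± 0.16) were also higher in root, and MYB121 lost its call in 7 of the alternatives. Toward inflorescence, WRKY40, a WRKY factor of defence and abscisic acid responses (2.24 ± 0.17), and AT5G16010 (3.56 ± 0.14) were named after their values were seen.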

How the data were processed

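Total RNA, treated with DNase, was measured in 3 inflorescence and 3 root samples. Per the labels' protocols, 0.5 µg served for linear amplification to cRNA carrying Cy3. Per the file headers, Agilent Feature Extraction 10.5.1.1 made the deposited processed signal, a linear intensity after background subtraction that was not scaled between arrays. The authors also deposited a table of the whole series, with log2 values whose making no header or label states. Its columns have a median of 1.41, correlate at 0.991 to 0.997 with the log2 processed signal of these 6 arrays, and are not centred per gene. Its scale stays unknown, and as signals rather than ratios its values carry no direction.

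From the processed signals, log2 values were taken after control spots and outlier spots were left out, and the 75th percentile over the 2679 probes (17.86%) well above background on all 6 arrays was subtracted from each array. The brightest kept probe stood for its gene, and spots were not averaged. With 1 probe kept per gene, 2162 genes were tested, of which 6 had a missing spot on 1 array, 2 of them called; limma fitted these on the remaining arrays. No spot was saturated. The test was limma's (version 3.58.1, R 4.3.3), with lmFit and eBayes on the 6 arrays and no covariate. The procedure was also run on simulated data with known changes, made from this comparison with 2162 genes. That simulation had independent noise on each array and no slide shift, detection floor or filter, so it cannot show their effects. With 3 arrays per organ, their number limits precision. Gene names and coding status of 400 of 405 loci come from the RefSeq table of TAIR10.1, which was used only for names, overlaps and neighbours; lincRNAs keep the names of the array's design.

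Leaf arrays were left out of the fit because leaf replicate 2 had few probes well above background; the fit over 9 arrays is an alternative. Other alternatives were normexp, other scalings, filters and probe rules, a common floor, the authors' table, blocks, slide 1 alone and each array left out. The files have no mean signal column, so normexp ran on the median spot and median background signals.

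Named genes are the called ones with the largest differences or bounds: 8 lincRNAs each way measured on all 6 arrays, 6 each way above background in 1 organ only, 5 non-coding loci, 8 precursors and 10 protein-coding genes each way, and the tested members of the lists; others are marked in the text. Members and lists were chosen with earlier results of these data known, so no list is independent evidence.

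Replicate numbers come from the sample titles. Deviations from the group means of same-numbered inflorescence and root arrays correlated at 0.49, 0.51 and 0.62. Each value was above those between unlike numbers, but same-numbered arrays also share a slide. Whether the numbers pair the arrays beyond the slide was not tested. The main values come from the fit without the replicate number as a block, and values with that block are given where it changes a call or count. Replicates 1 and 2, which share a slide, also correlated across numbers, at 0.39 and 0.43, and replicate 3 against the others at -0.55 to -0.51.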

Additional observations from a re-analysis of the deposited data

How the results depend on the processing

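Of the counts of calls by class and direction, most stayed within 1.5 times the main value. The exceptions came from 3 settings. With normexp, 249 genes were called, 128 higher in inflorescence and 121 higher in root, with 121 lincRNAs and 9 microRNA precursors; of the 584 calls 246 remained. The differences of 3 called precursors also changed sign there: ath-MIR172a to 0.057, ath-MIR395b to 0.0889 and ath-MIR395c to 0.0079. With the 75th percentile over all gene probes, 61 non-coding loci were called. Among probes well above background on all 6 arrays, where 1484 genes were tested, 323 were called, 134 and 189 by direction, with 170 lincRNAs and 26 precursors. In that setting another probe called AT4TU045600 the opposite way (1.16 against -3.08). The causes of the other shifts were not tested.

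Leaving out each array in turn gave 504 to 569 calls, 224 to 254 higher in inflorescence and 263 to 317 higher in root. With replicate numbers as a block (pairing same-numbered arrays), 650 genes were called, 576 of the 584 among them; beyond the nutrient list and MIR169 counts given with the results, and the calls of ath-MIR172d, ath-MIR390a and ath-MIR167a, which it added, and of ath-MIR167d, which it ended, it moved no count of a class or direction by over 1.5 times. The fit over all 9 arrays called 540 genes, and the values the authors deposited gave 616 calls, 527 of the 584 among them. Of the 180 named genes 111 were called, and 72 of these kept the call in every setting that could test them. Signals near background, most often of lincRNAs and precursors and on slide 2, limit what could be measured.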
